A study of Mus musculus with 6 samples.

Results

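This report covers 10 genes of the machinery that decides whether a cell dies by apoptosis. They are the survival genes *Bcl2*, *Bcl2l1*, and *Mcl1*, the effector *Bax*, the BH3-only genes *Bcl2l11*, *Bid*, *Pmaip1*, and *Bbc3*, and the survival factors *Cflar* and *Birc3*. Members were all array probes whose gene name in the scanner files equals 1 of these symbols, which gave 17 probes for 10 genes, of 55681 probes for 34844 gene names. Each of the 17 probes had 1 spot, and each was well above background on all 6 arrays.

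RNA was taken from murine bone marrow–derived macrophages (BMDMs), which are macrophages grown from bone marrow in culture. The cells came from wild type female C57BL/6 mice, given in the labels as 6 to 8 weeks old, and were differentiated for 7 days in medium conditioned by L929 cells. The study's methods give an older range of ages for its mice. The 3 groups were untreated cells, cells given lipopolysaccharide (LPS), the TLR4 ligand of Gram-negative bacteria, for 4 h, and cells given HBX41,108 at 10 µM for 30 min and then the same LPS (LPS+USP7i). HBX41,108 is a small molecule inhibitor of the deubiquitinase USP7. The LPS dose is 100 ng/ml in the text on the series and 100 ng/µl in the treatment protocol. No source used here says whether cells with LPS alone received the solvent of the inhibitor, so inhibitor and solvent cannot be told apart. No group received the inhibitor without LPS. A change in the response to LPS and a change that the inhibitor makes without LPS therefore cannot be told apart either. Each group had 2 arrays, described as samples of independent experiments, and precision is limited by that number of arrays.

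BCL2 family proteins govern the permeability of the outer mitochondrial membrane. Survival members such as BCL2, BCL-XL, and MCL1 hold the effectors BAX and BAK in check, and BH3-only proteins such as BIM, BID, NOXA, and PUMA bind and neutralize the survival members or activate the effectors. c-FLIP, encoded by *Cflar*, limits activation of caspase-8 at death receptors, and cIAP2, encoded by *Birc3*, is a ubiquitin ligase of the TNF receptor complex. In macrophages, several survival genes are known targets of NF-κB, and *Pmaip1* and *Bbc3* are known targets of p53.

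For *Cflar*, *Mcl1*, and *Bcl2l11*, probes of the same gene gave different changes, and the start of each of their probes is therefore shown. The probes of *Bcl2l1* also differed with LPS, though not in every way of processing the arrays, and are not shown. Each line gives the first 30 of the 60 bases, 5′ to 3′ in lower case, as the array files hold them.
Cflar A_52_P214612: gggacttgggaagttggagagctgactcct
Cflar A_55_P1983468: ctttcttgctgatgtataaattgcctcctt
Cflar A_55_P1983459: tcatggacaaagtgtatgcgtggaacagtg
Cflar A_52_P226929: gatttgacactgaatgtaacttgagactta
Mcl1 A_52_P93933: tgcagcttctctagttagaaatgtatttct
Mcl1 A_51_P238786: gctgcttggaaagatggctctcagcaaaat
Bcl2l11 A_52_P348214: atctcagtgcaatggatcagttggagaatc
Bcl2l11 A_51_P484880: ggatcggagacgagttcaacgaaacttaca

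The 4 *Cflar* probes lie on the plus strand of chromosome 1 (mm9), at chr1:58770546-58770605, chr1:58789994-58790053, chr1:58810660-58810719, and chr1:58811116-58811175 in the order of the lines. The array's annotation assigns A_55_P1983468 to *Cflar* transcript variant 2 and both A_55_P1983459 and A_52_P226929 to transcript variant 1, while A_52_P214612 belongs to an Ensembl transcript. The second probe lies 19.4 kb and the last 40.6 kb downstream of the first. The 2 *Mcl1* probes lie 1312 bases apart in 1 transcript, at chr3:95465543-95465602 and chr3:95466855-95466914. The 2 *Bcl2l11* probes are assigned to different transcripts. The first spans 682 bases of the genome, at chr2:127954736-127955417, and the second spans 11096 bases, at chr2:127972893-127983988, so that both cross a splice junction. An annotation of mm9 was not used here, and the exon or UTR each probe lies in is therefore not given.

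Promoters are shown for *Cflar* and *Birc3*, which rose together with LPS, and for *Bbc3*. They come from RefSeq (GRCm38.p6, another build than the probe positions) and run from 250 bases before to 50 bases after the start, in the direction of transcription. Capitals mark matches to the κB consensus decamer, which the *Bbc3* promoter shown holds on both strands, merged into 1 run where they overlap. The table has 3 promoters for *Bbc3*, and the other two hold no match.
Cflar, plus strand, chr1:58711241-58711540: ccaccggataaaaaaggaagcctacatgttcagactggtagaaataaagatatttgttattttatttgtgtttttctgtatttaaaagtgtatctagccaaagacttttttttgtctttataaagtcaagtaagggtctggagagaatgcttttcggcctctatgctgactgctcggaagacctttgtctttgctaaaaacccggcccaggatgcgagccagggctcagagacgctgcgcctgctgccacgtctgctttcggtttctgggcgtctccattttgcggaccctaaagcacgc
Birc3, minus strand, chr9:7873121-7873420: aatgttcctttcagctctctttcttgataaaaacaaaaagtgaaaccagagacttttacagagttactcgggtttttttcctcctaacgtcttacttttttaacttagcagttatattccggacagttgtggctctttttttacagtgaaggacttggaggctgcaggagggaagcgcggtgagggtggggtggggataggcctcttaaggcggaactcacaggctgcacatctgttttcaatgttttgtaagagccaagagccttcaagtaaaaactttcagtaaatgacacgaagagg
Bbc3, plus strand, chr7:16309333-16309632: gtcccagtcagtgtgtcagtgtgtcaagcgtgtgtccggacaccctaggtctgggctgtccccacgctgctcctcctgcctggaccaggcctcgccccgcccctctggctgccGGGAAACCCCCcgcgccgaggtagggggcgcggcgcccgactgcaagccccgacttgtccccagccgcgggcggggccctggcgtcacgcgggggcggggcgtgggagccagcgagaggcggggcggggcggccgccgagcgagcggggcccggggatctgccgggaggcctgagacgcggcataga

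The promoter table held 14 promoters for 9 of the genes, and *Pmaip1* was not matched. The κB consensus decamer and the p53 half-site decamer were searched on both strands of every 300-base window. The κB decamer occurred in 8.46% of all 32851 promoters, and among these genes in 1 of 3 promoters each of *Bbc3* and *Bcl2l1*. The p53 half-site decamer occurred in 8.36% of all promoters, and among these genes in *Bax*. A match is a string of letters in a window and not a measured binding site, and a window without a match says nothing about binding.

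The levels below are log2 normalized intensity, and levels of different probes are not compared; ratios between probes of a gene are given as their change across groups. Because the samples are bulk RNA, fewer cells of a type and less RNA per cell cannot be told apart. All 8 macrophage markers were well above background on every array, with a summed linear signal of 721300 to 729300 in untreated cells, 723700 to 748600 with LPS, and 587300 to 628300 with LPS+USP7i. Of 4 dendritic cell markers, *Flt3* and *Clec9a* were not well above background on any array and *Zbtb46* was so with LPS and with LPS+USP7i. *Siglech*, at 14.59 to 15.65 on all arrays, made up nearly all of their sums of 38050 to 45040, 24850 to 25310, and 34660 to 51410 in the same order. Neutrophil markers (3 to 4 of 4 above background) summed to 3677 to 4502 on all arrays. Those of B cells (2 to 4 of 4) summed to 281 to 1137, and those of T cells (2 to 3 of 4) to 604.4 to 805.5. Sums for NK cells (0 to 2 of 2) were 31.01 to 203.1, for fibroblasts (0 to 1 of 4) 41.73 to 88.27, and for erythroid cells (0 to 1 of 3) 23.09 to 34.06. Their part in the results was not tested. All arrays shared 1 slide, with untreated cells in row 1, LPS in row 2, and LPS+USP7i in row 4, so that row and treatment cannot be told apart.

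**Figure D1:**
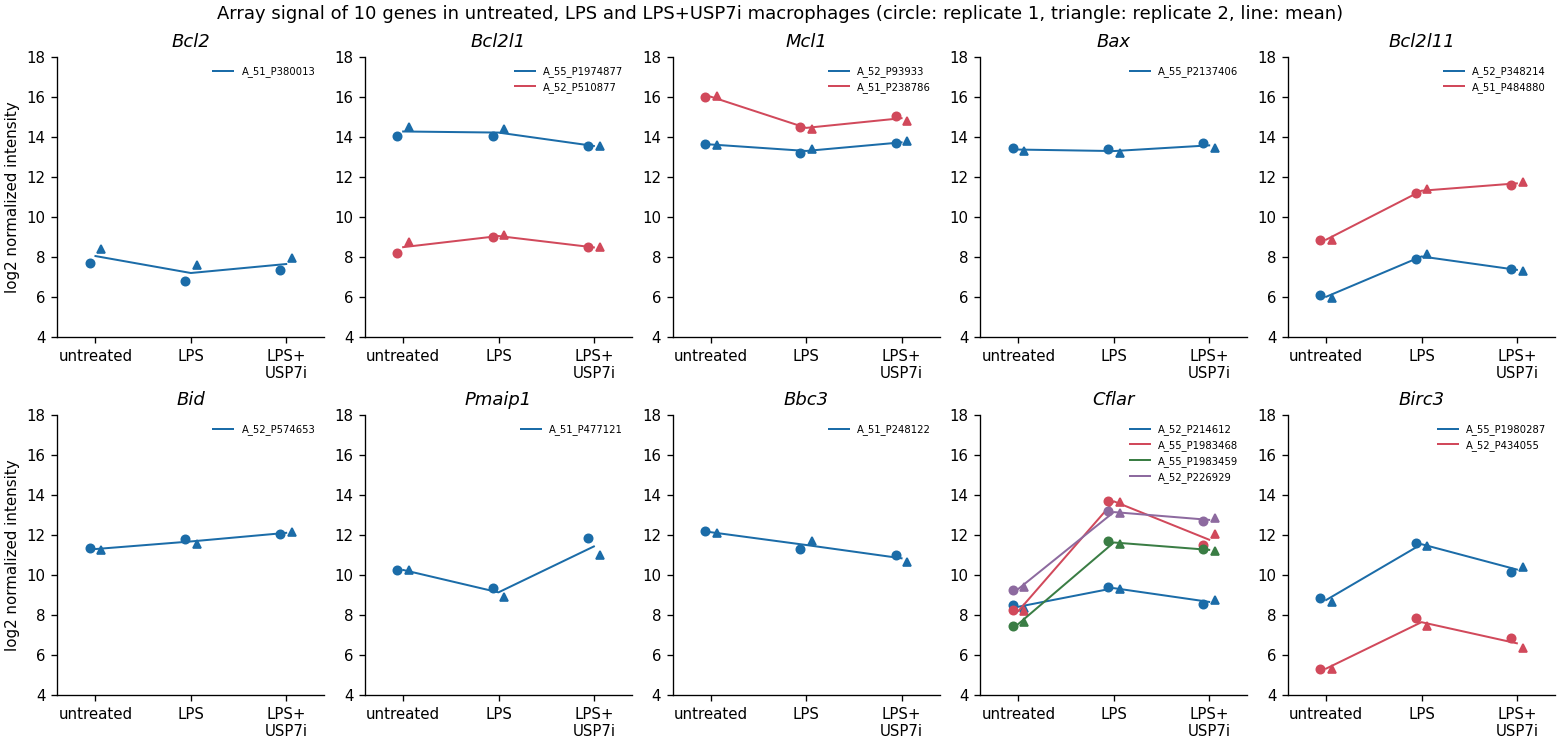
Log2 normalized intensity (y axis) of every probe of the 10 genes in untreated, LPS, and LPS+USP7i macrophages, with replicate 1 as circles, replicate 2 as triangles, and lines through the means. Each *Cflar* and *Birc3* probe is highest with LPS, *Pmaip1* is highest with LPS+USP7i, and *Bbc3* is highest in untreated cells.

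LPS raised the survival factors *Cflar* and *Birc3* and the BH3-only gene *Bcl2l11*, and lowered *Mcl1*, when each gene was read by its brightest probe. *Cflar* rose 14.3-fold, *Birc3* 6.93-fold, and *Bcl2l11* 5.45-fold, and *Mcl1* fell by 1.56 on the log2 scale, a 2.95-fold decrease. Among the 10 brightest probes, 3 were higher, 1 was lower, and 6 did not pass an adjusted p value of 0.05. Over the whole array 20.7% of brightest probes passed in either direction, 38% of those above background on all arrays. Of all 17 probes, 8 were higher, 1 was lower, and 8 did not pass, where 17.8% of all probes passed, and 37% of those well above background on all arrays (14.6% higher and 22.4% lower). By gene, the median difference of the 10 brightest probes was −0.06, with 4 above and 6 below 0, compared with −0.18 for all brightest probes above background on every array. Counted by probe the sign differed, with a median of 0.56 over the 17 probes, of which 4 are *Cflar* probes, compared with −0.15 for all probes well above background on every array. The 2 groups did not overlap for 15 of the 17 probes, where 79.9% of all probes well above background did not overlap.

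Among the survival genes, *Mcl1* fell by probe A_51_P238786. This probe read 15.98 and 16.05 on the untreated arrays, 14.50 and 14.41 on the LPS arrays, and 15.07 and 14.81 on the LPS+USP7i arrays. The LPS arrays were the lowest and the untreated arrays the highest, with no overlap among the 3 groups. The decrease with LPS was 1.56 (standard error 0.11, limma adjusted p = 0.00517). The other *Mcl1* probe, A_52_P93933, read 13.64 and 13.61, then 13.22 and 13.38, then 13.68 and 13.78. Its difference with LPS was −0.32 (standard error 0.08, adjusted p = 0.0835). The ratio of A_52_P93933 to A_51_P238786 within each array rose by 1.23 with LPS (standard error 0.16, adjusted p = 0.00536), so the probes of this gene did not change equally. Across the 5075 such probe ratios on the array, 23.4% passed in this comparison.

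*Bcl2*, the founding survival member, was read by a single probe assigned to transcript variant 2. It read 7.69 and 8.40 on the untreated arrays, 6.79 and 7.61 on the LPS arrays, and 7.35 and 7.94 on the LPS+USP7i arrays. Its difference with LPS was −0.85, with a 95% interval from −2.06 to 0.36 (adjusted p = 0.334), and the spread between its replicates was among the widest of the 17 probes. *Bcl2l1*, which encodes BCL-XL, read 14.06 and 14.49, then 14.06 and 14.38, then 13.56 and 13.54 by its brightest probe, A_55_P1974877. Untreated and LPS arrays overlapped, with a difference of −0.05 and an interval from −0.60 to 0.49 (adjusted p = 0.961). The dimmer probe of *Bcl2l1*, A_52_P510877, read 8.21 and 8.77, then 8.99 and 9.10, then 8.48 and 8.48, a difference with LPS of 0.56 (adjusted p = 0.186). Its ratio to the brightest probe rose by 0.61 with LPS (standard error 0.12, adjusted p = 0.0194). That change was 0.069 with arrays scaled to their 75th percentile (adjusted p = 0.849), and it did not pass without either untreated array or without LPS replicate 1 (adjusted p = 0.0787 to 0.125).

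The effector *Bax* showed no difference with LPS beyond the spread between arrays. It read 13.43 and 13.31 on the untreated arrays, 13.40 and 13.19 on the LPS arrays, and 13.71 and 13.45 on the LPS+USP7i arrays. The first 2 groups overlapped, and the interval of their difference ran from −0.45 to 0.30.

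Of the BH3-only genes, *Bcl2l11*, which encodes BIM, rose with LPS by both probes. A_51_P484880 read 8.87 and 8.86 on the untreated arrays, 11.22 and 11.41 on the LPS arrays, and 11.62 and 11.74 on the LPS+USP7i arrays, an increase with LPS of 2.45 (standard error 0.10, adjusted p = 0.00283). A_52_P348214 read 6.09 and 5.93, then 7.92 and 8.13, then 7.42 and 7.29, an increase with LPS of 2.02 (standard error 0.12, adjusted p = 0.00399). With both probes, each LPS array lay above each untreated array.

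The other BH3-only genes did not pass the threshold with LPS. *Bid*, whose protein links caspase-8 to mitochondria, read 11.32 and 11.27 on the untreated arrays, 11.81 and 11.54 on the LPS arrays, and 12.07 and 12.15 on the LPS+USP7i arrays. Its difference with LPS was 0.38 (adjusted p = 0.12). *Pmaip1*, which encodes NOXA, an antagonist of MCL1, read 10.26 and 10.24, then 9.36 and 8.90, then 11.87 and 10.98. Its difference with LPS was −1.12 (standard error 0.36, adjusted p = 0.131), with no overlap between the groups. *Bbc3*, which encodes PUMA, read 12.19 and 12.09, then 11.31 and 11.69, then 11.00 and 10.67. Its difference with LPS was −0.64 (adjusted p = 0.112), again with no overlap. With arrays scaled to their 75th percentile, *Bid* passed with 0.63 (limma adjusted p = 0.0224) and *Pmaip1* with −1.06 (adjusted p = 0.0492). *Pmaip1* and *Bbc3* passed with dim probes left out (adjusted p = 0.04 and 0.0451), and *Bbc3* with normexp background (adjusted p = 0.0364).

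All 4 *Cflar* probes rose with LPS, by amounts that differed among probes. The brightest, A_52_P226929, read 9.23 and 9.39 on the untreated arrays, 13.19 and 13.10 on the LPS arrays, and 12.68 and 12.83 on the LPS+USP7i arrays. It rose by 3.84 with LPS (standard error 0.10, adjusted p = 0.00245). A_55_P1983459, of the same transcript variant, read 7.45 and 7.66, then 11.70 and 11.55, then 11.32 and 11.19, and rose by 4.07 (standard error 0.12, adjusted p = 0.00249). For both probes, each array with LPS, with or without inhibitor, lay above each untreated array.

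The probe of *Cflar* transcript variant 2, A_55_P1983468, read 8.23 and 8.18 on the untreated arrays, 13.70 and 13.67 on the LPS arrays, and 11.47 and 12.05 on the LPS+USP7i arrays. It rose by 5.48 with LPS, which is 44.6-fold (standard error 0.21, adjusted p = 0.00281). A_52_P214612 read 8.48 and 8.34, then 9.39 and 9.29, then 8.57 and 8.74, and rose by 0.93 (standard error 0.10, adjusted p = 0.0103). That rise did not pass without untreated replicate 2 or without LPS replicate 1 (adjusted p = 0.0609 and 0.0545). Relative to the brightest *Cflar* probe on the same array, A_55_P1983468 rose by a further 1.64 with LPS (standard error 0.17, adjusted p = 0.00256), and A_52_P214612 lagged by 2.91 (ratio change −2.91, standard error 0.13, adjusted p = 0.000676). The plot of differences against position shows that the largest rise was not at either end of the probed region.

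*Birc3* rose by both probes. A_55_P1980287 read 8.86 and 8.63 on the untreated arrays, 11.62 and 11.46 on the LPS arrays, and 10.16 and 10.38 on the LPS+USP7i arrays, an increase with LPS of 2.79 (standard error 0.14, adjusted p = 0.00335). A_52_P434055 read 5.31 and 5.32, then 7.84 and 7.44, then 6.83 and 6.34, an increase of 2.32 (standard error 0.23, adjusted p = 0.00882). The 3 groups did not overlap with either probe, in the order untreated, LPS+USP7i, LPS. The difference of A_52_P434055 was 1.28 with normexp background, and it did not pass without either untreated array (adjusted p = 0.0558 and 0.059). Of the 7 probe ratios of these genes, 4 changed with LPS, where 23.4% of all 5075 probe ratios passed.

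With arrays scaled to their 75th percentile in place of quantile normalization, the median difference of all probes between LPS and untreated cells moved from 0.0045 to 0.51, and 21768 probes were higher and 5669 lower, compared with 3948 and 5947. Under that scaling 7 of the 10 genes were called with LPS, *Bax* was called higher by 0.42 (adjusted p = 0.0297), and the called probes of *Cflar*, *Birc3*, *Bcl2l11*, and *Mcl1* kept their direction. The 0.42 of *Bax* is below the median of all probes under that scaling and above that of probes well above background, which was 0.09. The decrease of *Mcl1* A_51_P238786 was 0.99 there (difference −0.99, adjusted p = 0.00554).

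**Figure D2:**
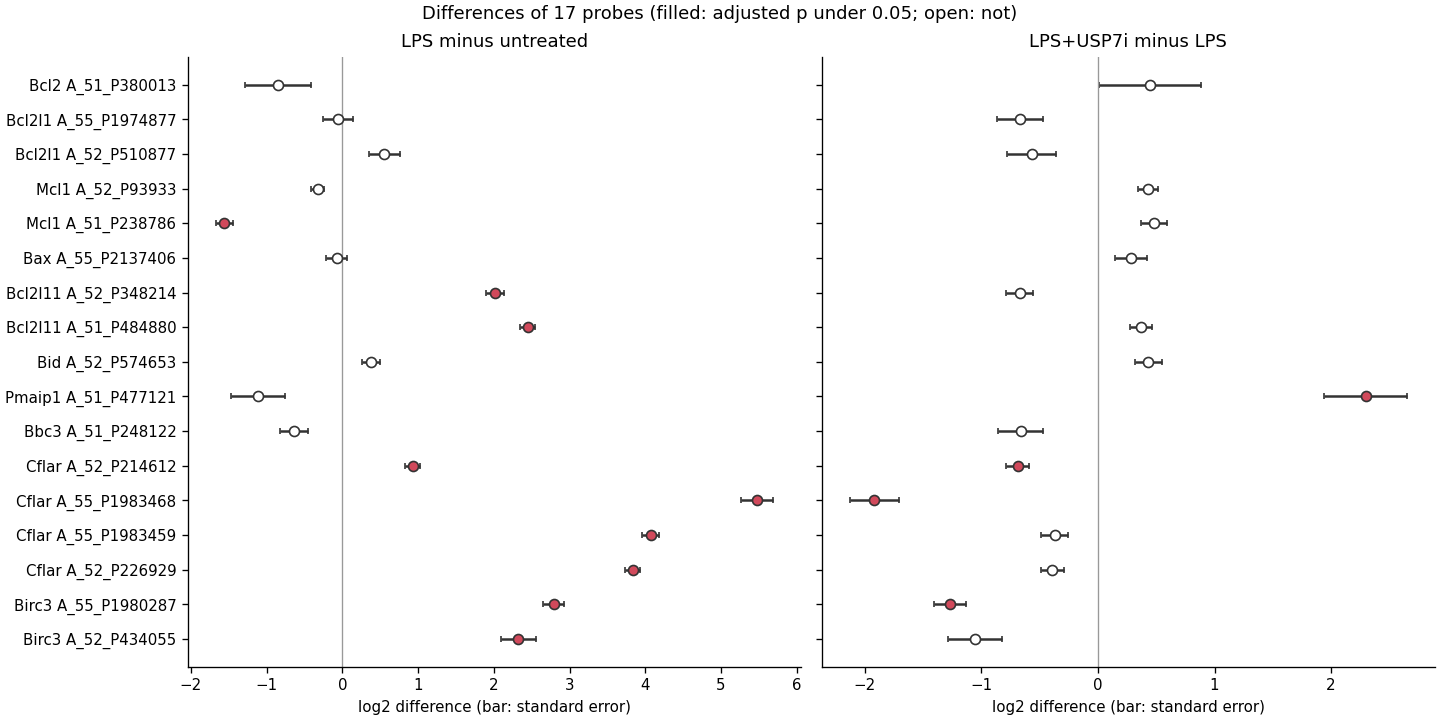
Log2 difference (x axis, bars are standard errors) of each of the 17 probes, for LPS minus untreated on the left and LPS+USP7i minus LPS on the right. Filled points passed an adjusted p value of 0.05 in limma: 9 of 17 on the left and 4 of 17 on the right.

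With the USP7 inhibitor, *Pmaip1* was 4.91-fold higher than with LPS alone and *Birc3* was 2.41-fold lower, and 2 of the 4 *Cflar* probes were lower. Among the 10 brightest probes, 1 was higher (*Pmaip1*), 1 was lower (*Birc3*), and 8 did not pass, where 9.79% of all brightest probes passed, and 17.2% of those above background on all arrays. Of the 17 probes, 1 was higher and 3 were lower, compared with 8.45% of all probes called, and 16.9% of probes well above background on every array (9.29% higher and 7.61% lower). By gene, the median difference of the 10 brightest probes was 0.33, with 6 above and 4 below 0, compared with 0.05 for all brightest probes above background on every array. Counted by probe the sign differed, with a median of −0.39 over the 17 probes, compared with 0.05 for all probes well above background. At an unadjusted p value under 0.05, 14 of the 17 probes passed, where 43.6% of probes well above background did. The groups did not overlap for 16 of 17, where 66.9% of probes well above background did not overlap. The LPS arrays enter both comparisons, so a chance deviation of those arrays moves the LPS difference and the inhibitor difference of a gene in opposite directions.

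*Pmaip1* was the member with the largest difference between LPS+USP7i and LPS. Its LPS+USP7i arrays, at 11.87 and 10.98, lay above both LPS arrays and both untreated arrays. The increase was 2.30 (standard error 0.36, 95% interval 1.31 to 3.28, adjusted p = 0.0409), and between arrays of the same replicate number it was 2.51 and 2.08. Compared with untreated cells the difference was 1.18 (adjusted p = 0.137).

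*Birc3* fell by 1.27 with the inhibitor by its brightest probe (standard error 0.14, adjusted p = 0.0225), a call that was lost with a replicate block. The second *Birc3* probe gave −1.06 (standard error 0.23, adjusted p = 0.0789), and the ratio of both probes did not pass (change 0.21, adjusted p = 0.693). That fall of the second probe passed in 3 of 14 other ways of processing the arrays (lowest limma adjusted p = 0.0106, with normexp background). Both probes remained above the untreated level with the inhibitor, by 1.52 (adjusted p = 0.0108) and 1.27 (adjusted p = 0.0427). The second of these differences, of A_52_P434055, passed in 7 of 14 other ways of processing the arrays (adjusted p = 0.0106 to 0.169), and with normexp background it was 0.54. It did not pass in the fit of 2 groups, or when any 1 of the 6 arrays was left out. The first, of A_55_P1980287, did not pass without untreated replicate 2 (adjusted p = 0.059).

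The probe of *Cflar* transcript variant 2, A_55_P1983468, fell by 1.92 with the inhibitor, a 3.79-fold decrease (standard error 0.21, 95% interval −2.50 to −1.34, adjusted p = 0.0228). A_52_P214612 fell by 0.69 (standard error 0.10, adjusted p = 0.036), to a level 0.24 from that of untreated cells (adjusted p = 0.251). That fall did not pass with a replicate block. The probes of transcript variant 1 gave −0.39 (A_52_P226929, 95% interval −0.66 to −0.12, adjusted p = 0.108) and −0.37 (A_55_P1983459, 95% interval −0.69 to −0.05, adjusted p = 0.163). With normexp background A_55_P1983459 passed (limma adjusted p = 0.0331). Relative to A_52_P226929 on the same array, the variant 2 probe fell by 1.53 (standard error 0.17, adjusted p = 0.0126), where 9.12% of all probe ratios passed. The ratio of the variant 2 probe with LPS+USP7i differed from that in untreated cells by 0.11 (adjusted p = 0.705). The ratio of A_52_P214612 changed by −0.30 (adjusted p = 0.245).

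The *Bcl2l11* probes lay in opposite directions with the inhibitor, and neither passed alone. A_52_P348214 gave −0.67 (adjusted p = 0.0509) and A_51_P484880 gave 0.37 (adjusted p = 0.112). The former passed in 2 of 14 other ways of processing, normexp background (limma adjusted p = 0.0148) and dim probes left out (adjusted p = 0.0249). The ratio of A_52_P348214 to A_51_P484880 fell by 1.04 (standard error 0.13, adjusted p = 0.0153), which with *Cflar* made 2 of 7 probe ratios that changed, where 9.12% of all probe ratios passed. Without either LPS array neither ratio passed (adjusted p = 0.062 to 0.0735). Compared with untreated cells both probes were higher with LPS+USP7i, by 1.35 (adjusted p = 0.0102) and 2.82 (adjusted p = 0.00399). The first of these was 0.68 with normexp background, and it did not pass without either untreated array (adjusted p = 0.0511 and 0.0611).

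**Figure D3:**
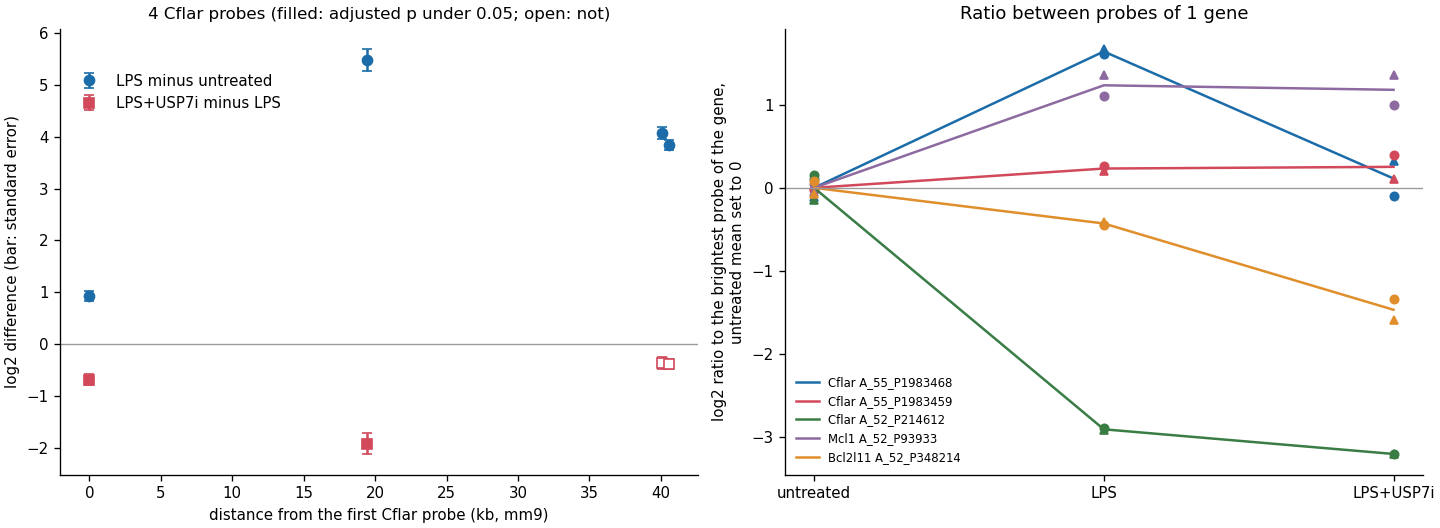
The left panel plots the log2 difference of each *Cflar* probe (bars are standard errors) against its distance in kb from the first probe, and the right panel the log2 ratio of further probes of *Cflar*, *Mcl1*, and *Bcl2l11* to the brightest probe of the same gene on each array (circles replicate 1, triangles replicate 2, lines means), with the untreated mean set to 0. The ratio of *Cflar* A_55_P1983468 rises by 1.64 with LPS and falls by 1.53 with the inhibitor, whereas that of *Bcl2l11* A_52_P348214 falls by 1.04 with the inhibitor.

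The remaining genes did not pass between LPS+USP7i and LPS, and the intervals state how large a difference these arrays leave possible. For *Bcl2l1* the differences were −0.67 (95% interval −1.21 to −0.13) and −0.57 (−1.15 to 0.01), and for *Mcl1* 0.48 (0.17 to 0.79) and 0.43 (0.20 to 0.66). *Bcl2* gave 0.45 (−0.76 to 1.66), *Bax* 0.28 (−0.09 to 0.66), *Bid* 0.43 (0.11 to 0.75), and *Bbc3* −0.66 (−1.19 to −0.14). Adjusted p values of these 8 probes in 6 genes lay between 0.0651 and 0.647. The intervals are not adjusted for the number of probes, and several of them exclude 0. With normexp background, *Bcl2l1* A_55_P1974877 (limma adjusted p = 0.0443), *Mcl1* A_52_P93933 (0.0334), *Bid* (0.0498), and *Bbc3* (0.0451) passed.

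Compared with untreated cells, LPS+USP7i cells had more *Bcl2l11*, *Bid*, *Cflar*, and *Birc3* and less *Mcl1* and *Bbc3* by their brightest probes, 6 of 10 genes, where 14.9% of all brightest probes passed, and 27.2% of those above background on all arrays. Of all 17 probes, 8 were higher and 2 were lower, where 13% of all probes passed, and 27.1% of those well above background on all arrays (11.6% higher and 15.5% lower). *Bid* was higher by 0.81 (standard error 0.12, adjusted p = 0.0252) and *Bbc3* lower by 1.30 (difference −1.30, standard error 0.19, adjusted p = 0.026). Neither had passed in the comparisons that share these arrays, and *Bbc3* did not pass here with a replicate block. *Bid* passed in 10 and *Bbc3* in 9 of 14 other ways of processing, and neither passed when any 1 of the untreated or LPS+USP7i arrays was left out. *Mcl1* A_51_P238786 was 1.07 below the untreated level (difference −1.07, adjusted p = 0.0136), which did not pass without either untreated array (adjusted p = 0.071 and 0.0799). The *Cflar* probes of variants 1 and 2 stood 3.45 to 3.70 above it (adjusted p values 0.00384 to 0.00638).

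The 4 probes called with the inhibitor kept their direction in each of 14 other ways of processing the arrays, while their adjusted p values crossed the threshold in some of them. *Pmaip1* passed in 8 of 14 (adjusted p = 0.00656 to 0.139), *Cflar* A_55_P1983468 in 9 (0.00138 to 0.0959), *Birc3* A_55_P1980287 in 7 (0.00196 to 0.0891), and *Cflar* A_52_P214612 in 5 (0.00404 to 0.13). None of the 4 passed when the fit held only the 2 groups compared, or when either untreated array or either LPS array was left out. Without LPS+USP7i replicate 1, only *Cflar* A_55_P1983468 passed.

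**Figure D4:**
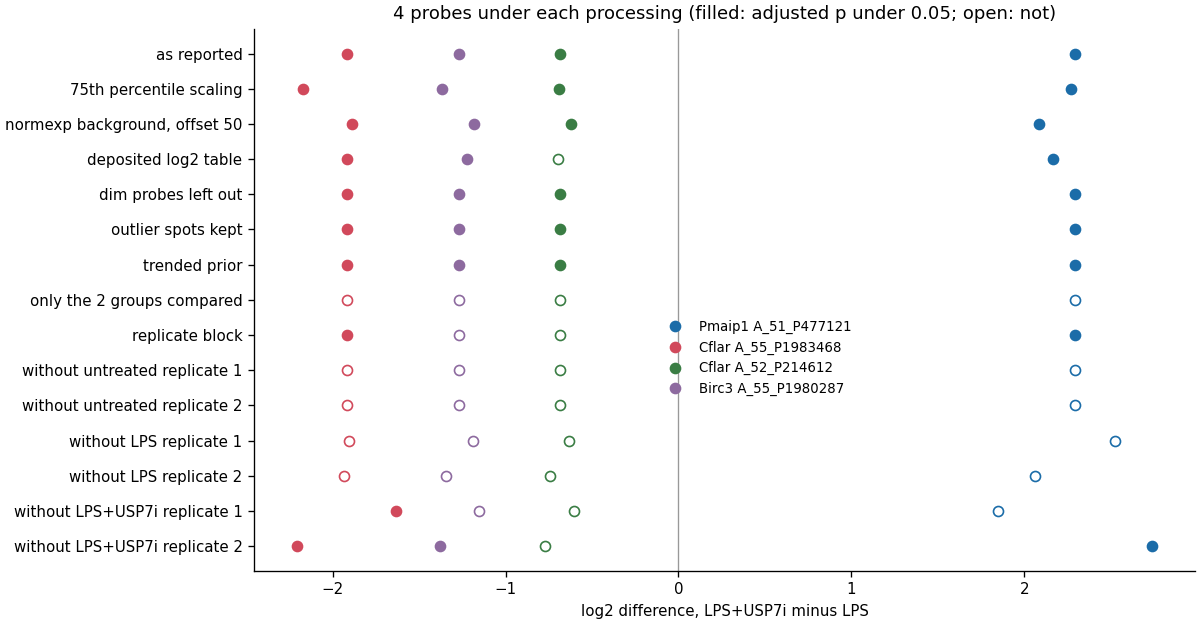
Log2 difference between LPS+USP7i and LPS (x axis) of the 4 probes called with the inhibitor, as reported and under 14 other ways of processing the arrays (y axis), filled where the adjusted p value was under 0.05. *Pmaip1* lies between 1.85 and 2.74 and *Cflar* A_55_P1983468 between −2.21 and −1.63 throughout.

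A further 50 apoptosis genes were listed by role, of which 48 were found on the array, each read by its brightest probe. With LPS, 13 of 48 were higher and 13 were lower, where 20.7% of all brightest probes passed in either direction, and 38% of those above background on all arrays. With the inhibitor 6 were higher and 6 were lower than with LPS alone, where 9.79% and 17.2% passed. That even split was 3 higher and 8 lower with the deposited log2 table, and 9 and 13 with dim probes left out. The list's median difference with LPS was −0.08, compared with 0.0016 for all brightest probes and −0.18 for those above background on all arrays. With the inhibitor it was −0.16, compared with 0.0008 and 0.05. In the survival group, *Bcl2a1c* rose by 4.47 with LPS (adjusted p = 0.00628) and was 2.31 lower with the inhibitor (difference −2.31, adjusted p = 0.0422). *Bcl2a1d* rose by 3.71 (adjusted p = 0.0071) and was lower by 2.06 (difference −2.06, adjusted p = 0.0424). Both belong to the *Bcl2a1* family of near-identical copies, so that their probes may not tell the copies apart, while *Bcl2l2* and *Bcl2l10* did not pass in either comparison.

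Of the 7 further genes listed as BH3-only, *Moap1* among them, 0 were higher and 4 were lower with LPS, and 3 were higher with the inhibitor. Of brightest probes above background, 38% and 17.2% passed in either direction. Over all brightest probes 20.7% and 9.79% passed, and 5 of the 7 genes were well above background on all arrays. *Bmf*, which links the cytoskeleton to BCL2 proteins, read 10.16 and 9.86 in untreated cells and 5.87 and 5.16 with LPS+USP7i, and was not well above background with LPS. It was at least 46-fold lower with LPS (adjusted p = 0.00283) and at least 2.04-fold higher with the inhibitor (adjusted p = 0.0178). For such a bound, a dim reading was replaced by the faintest signal on its array that counted as well above background. The adjusted p value beside a bound is from the limma fit to the readings without that replacement and does not test the bound. *Bnip3* and *Bnip3l*, which also act in mitophagy, were higher with the inhibitor by 0.63 (adjusted p = 0.0307) and 0.62 (adjusted p = 0.032). *Bnip3l* had fallen by 1.06 with LPS (adjusted p = 0.00613).

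The list's group of inhibitors of apoptosis held 8 further genes, among them *Naip1*, *Naip2*, *Naip5*, and *Naip6*. Of the 8, 1 was higher with LPS and 2 were lower with the inhibitor, against the same shares of 38% and 17.2%. *Birc2*, the paralog of *Birc3*, rose by 1.99 (adjusted p = 0.00512) and was then 1.55 lower (difference −1.55, adjusted p = 0.0181). *Xiap*, which inhibits caspases directly, was 0.77 lower with the inhibitor (difference −0.77, adjusted p = 0.0264).

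Of the 8 apoptosome and caspase genes, 5 were higher and 2 were lower with LPS, where 38% of brightest probes above background passed, and 2 were lower with the inhibitor, where 17.2% passed. *Casp9*, the initiator caspase of the apoptosome, fell by 2.82 with LPS (adjusted p = 0.00413). *Casp8*, the caspase that c-FLIP limits, was 1.09 lower with the inhibitor than without (difference −1.09, adjusted p = 0.0215).

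Of the 9 death receptor and necroptosis genes, 3 were higher and 3 were lower with LPS, where 38% of brightest probes above background passed. The receptor gene *Fas* rose by 4.11 (adjusted p = 0.00662) and the necroptosis effector *Mlkl* by 2.45 (adjusted p = 0.0122), and the adaptor *Fadd* fell by 1.12 (adjusted p = 0.00424). With the inhibitor 2 of the 9 were higher, where 17.2% passed in either direction. They were *Ripk3*, a kinase that acts on MLKL, by 0.99 (adjusted p = 0.0386) and *Fadd* by 0.62 (adjusted p = 0.0236). Differences of *Fas* and *Mlkl* with the inhibitor were −1.80 and −0.98, which did not pass (limma adjusted p = 0.062 and 0.144). The median of the 9 genes was −0.15. *Trp53*, which encodes p53, rose by 1.42 with LPS (adjusted p = 0.0253) and had a difference of −0.14 with the inhibitor that did not pass. The nuclease gene *Dffb* fell by 1.38 with LPS (adjusted p = 0.0256), where it was well above background on 1 of 2 arrays, and was higher by 1.31 with the inhibitor (adjusted p = 0.0477). *Bcl2l15*, not well above background in untreated cells, was at least 2.13-fold higher with LPS (adjusted p = 0.00607).

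Between LPS+USP7i and untreated cells, 8 of the 48 genes were higher and 13 were lower, where 14.9% of all brightest probes passed, and 27.2% of those above background on all arrays. The median difference was −0.06, compared with −0.0021 for all brightest probes and −0.08 for those above background on all arrays. With 75th percentile scaling 14 were higher and 14 were lower, while over the whole array 21937 probes were higher and 4605 lower, compared with 3147 and 4086 as reported, and the median of all probes moved from 0.0003 to 0.55. Among called genes, the largest differences upward included *Bcl2l15*, at least 3.87-fold (adjusted p = 0.00644), and *Fas* with 2.30 (adjusted p = 0.0282). They also included *Bcl2a1c* with 2.16 (adjusted p = 0.0365), *Mlkl* with 1.48 (adjusted p = 0.0494), and *Trp53* with 1.28 (adjusted p = 0.0401). Downward they were *Bmf* with −4.49 (adjusted p = 0.00725), *Birc5*, which encodes survivin, with −1.97 (adjusted p = 0.0433), *Casp9* with −1.85 (adjusted p = 0.011), and *Cyld*, a deubiquitinase of the TNF receptor complex, with −1.71 (adjusted p = 0.0147). *Bcl2l14* was at least 2.31-fold lower (adjusted p = 0.0208).

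**Figure D5:**
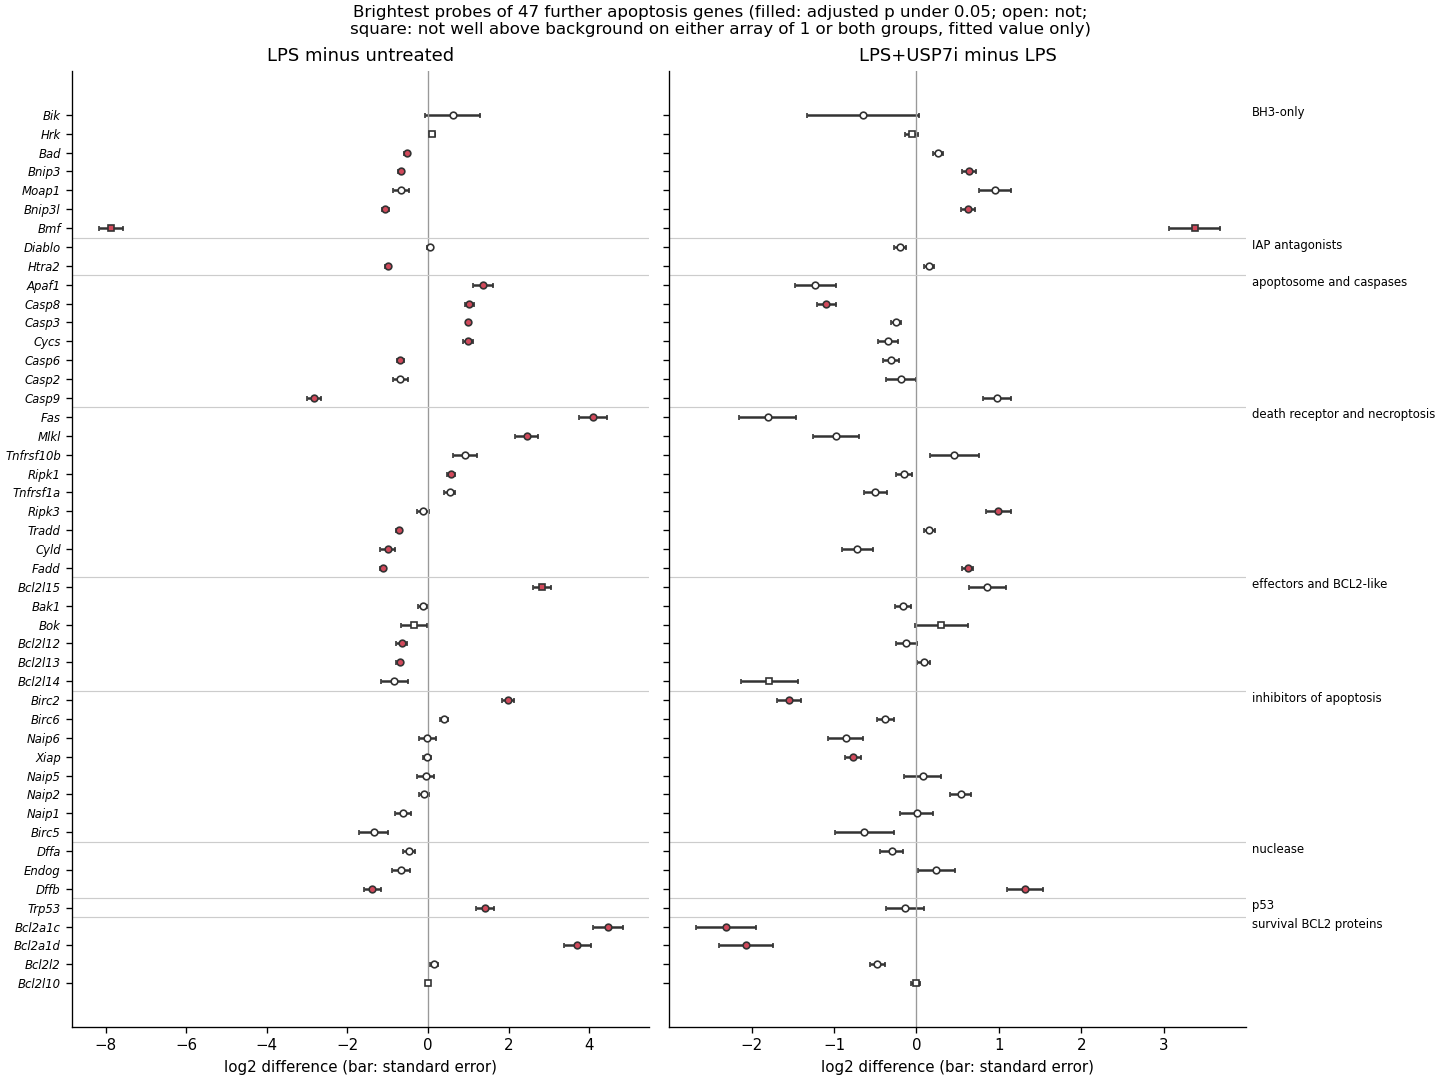
Log2 difference (x axis, bars are standard errors) of the brightest probe of 47 of the 48 further apoptosis genes grouped by role, for LPS minus untreated on the left and LPS+USP7i minus LPS on the right, filled where the adjusted p value was under 0.05. Squares mark genes not well above background on either array of 1 or both groups, whose fitted values are no measure of a fold; of the survival genes, *Bcl2a1c* and *Bcl2a1d* lie at 4.47 and 3.71 on the left and at −2.31 and −2.06 on the right.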

How the data were processed

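Cy3-labeled RNA of 6 samples, 3 groups of 2, was hybridized to 1-color Agilent mouse arrays. The authors deposited scanner files from Feature Extraction 10.7.3.1, with background-subtracted spot intensities. The authors also deposited 1 table of normalized log2 values for the same arrays (column medians 5.07 to 5.1), used here as an alternative. The methods name limma, quantile normalization, and an adjusted p value of 0.05.

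Processed signals of 59305 spots per array that were not controls were quantile-normalized on the log2 scale in R 4.3.3, spots flagged as outliers (119 to 172 per array) were left out, and spots of a probe were averaged. limma 3.58.1 (lmFit and eBayes) fitted all 6 arrays, with Benjamini-Hochberg adjustment over 55680 probes and a threshold of 0.05. Ratios between probes of a gene were fitted likewise over 5075 pairs well above background on all arrays. Intervals are 95% limits from that fit. An exact permutation test of 2 against 2 arrays cannot go below p = 0.333 and was not used. Replicates correlated with r = 0.991 to 0.996 across 20705 probes, and 25002 to 27467 spots per array were well above background.

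All probes of the 10 genes are reported, and a gene was called by its brightest probe. From the apoptosis list, up to 5 called genes per direction and comparison with the largest differences are named where both arrays of 1 group were well above background. The values of 1 gene of that list are not reported here. *Xiap* and *Fadd* in the inhibitor comparison, *Birc2* and *Trp53* with LPS, and genes given as not passing were named after their values were seen. The members and all lists, with the markers of cell types, were chosen with earlier results of these data known. *Bcl2a1a* and *Bcl2a1b* were not found by name, and *Adgre1* was matched through its older name. The probe ratios were added after seeing the data. Other processing tried was 75th percentile scaling, normexp background, the deposited log2 table, dim probes left out, flagged spots kept, a trended prior, 2-group fits, a replicate block, each array left out, probes of a gene averaged, and a log2 difference of at least 1. The fitting code was tested on simulated data with noise independent between arrays. The criterion there was the median size of added differences, and not the share of probes called. Motifs were searched and figures drawn with Python 3.11.15, pandas 2.3.3, and matplotlib 3.10.9.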

Additional observations from a re-analysis of the deposited data

How the results depend on the processing

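Of the probes called, 9 with LPS, 4 with the inhibitor, and 10 between LPS+USP7i and untreated cells, all kept their direction under 14 alternatives, and 7, 0, and 4 of them passed in every alternative. The number of the 10 genes called with the inhibitor was 2 as reported, 5 with normexp background, 4 with probes of a gene averaged, 1 with a replicate block, where *Birc3* A_55_P1980287 had an adjusted p of 0.0504, and 0 in 2-group fits, although 7 genes had an unadjusted p under 0.05 there in limma. With LPS it was 4 as reported, 7 with 75th percentile scaling, 6 with dim probes left out, and 5 with normexp background. With 1 array left out it ran from 0 to 2 with the inhibitor, from 2 to 6 between LPS+USP7i and untreated cells (6 as reported, 3 without untreated replicate 1 and 2 without untreated replicate 2), and stayed at 4 with LPS. With the inhibitor it was 0 without either untreated array, either LPS array, or LPS+USP7i replicate 1, where 5 to 7 genes had an unadjusted p under 0.05. The 48 further apoptosis genes gave 12 calls with the inhibitor as reported, 22 with dim probes left out, 20 with normexp, 7 with a log2 difference of at least 1, 7 with a replicate block, 0 in 2-group fits (27 at an unadjusted p under 0.05), and 0 to 10 with 1 array left out. They gave 26 calls with LPS as reported, 15 with a log2 difference of at least 1, and 12 to 28 with 1 array left out. Between LPS+USP7i and untreated cells they gave 21 as reported, 10 with a log2 difference of at least 1, 9 in 2-group fits, and 2 to 13 with 1 array left out. Probe ratios that changed numbered 4 with LPS and 2 with the inhibitor, and 3 to 4 and 0 to 2 with 1 array left out. With LPS, 3 rose and 1 fell as reported, 3 rose and 3 fell with normexp and with the deposited table (6 in each), and 2 rose and 1 fell with 75th percentile scaling (3). They numbered 0 with the inhibitor without either LPS array, with 2 at an unadjusted p under 0.05. Filtering dim probes leaves the probe ratios as they are and was not run on them. Fewer arrays in a fit leave fewer residual degrees of freedom, and a lone array is assumed to vary like the other groups; the cause of the other changes was not tested.

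With normexp the LPS difference was 1.25 for *Bcl2l11* A_52_P348214 and 1.28 for *Birc3* A_52_P434055, and the difference from untreated cells with LPS+USP7i 0.68 and 0.54. With 75th percentile scaling that of *Mcl1* A_51_P238786 was −0.67. The sign turned only for probes that were not called. With 75th percentile scaling the LPS difference became 0.52 for *Bcl2l1* A_55_P1974877, 0.17 for *Mcl1* A_52_P93933, and 0.42 for *Bax*, and the difference from untreated cells with LPS+USP7i became 0.0093 for *Bcl2l1* A_52_P510877. With 1 array left out these were −0.27 to 0.16 for *Bcl2l1* A_55_P1974877, −0.18 to 0.03 for *Bax*, and −0.29 to 0.27 for *Bcl2l1* A_52_P510877. Replicate numbers share slide columns, and the deviations of same-numbered arrays correlated with r = 0.40 to 0.47, but no label says that a number marks a shared experiment, so the numbers were not used as pairs. With the block the adjusted p was also above the threshold for *Cflar* A_52_P214612 with the inhibitor (0.0696) and for *Bbc3* between LPS+USP7i and untreated cells (0.0567).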
